A study of Caenorhabditis elegans with 609 samples.

Results

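The 9 genes described here are heat shock genes of *Caenorhabditis elegans* whose transcripts are known to rise on heat shock: the small heat shock protein genes hsp-16.1 (T27E4.8), hsp-16.2 (Y46H3A.3), hsp-16.11 (T27E4.2), hsp-16.41 (Y46H3A.2), hsp-16.48 (T27E4.3) and hsp-16.49 (T27E4.9), and the HSP70-family genes hsp-70 (C12C8.1), F44E5.4 and F44E5.5. They were chosen by sequence name, with all transcripts of a gene summed, and are 9 of 22017 genes with at least 1 estimated count. Of these 9, 8 had a reliably expressed transcript, meaning at least 5 normalized counts in all cultures of at least 10 strains, as did 16232 genes in all, and hsp-16.1 did not. Counts over these 8 members hold hsp-16.48 and hsp-16.49, whose estimated counts were equal in every culture, as 2 members.

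Small heat shock proteins bind unfolding proteins and keep them from aggregating, and HSP70 chaperones refold such proteins with the energy of ATP. In *C. elegans*, the hsp-16 genes and hsp-70 are transcribed under the control of the heat shock factor HSF-1, and reporters of hsp-16.2 are widely used to read the heat shock response. The cytosolic HSP70 gene hsp-1, in contrast, is expressed constitutively.

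The study asked how transcript levels vary among wild strains. Synchronized young adult hermaphrodites, fed *Escherichia coli* OP50 and grown at a single temperature, were harvested as whole animals after the first embryo was seen, and poly(A) RNA of each independently grown culture was sequenced. No heat shock or other treatment was given to any group, so every value below is a level without an applied stress, and strains are the groups compared. The labels differ further in the sequencing pool, the year and a code from B1 to B9, whose meaning the sources used here do not give. Titles also carry a prefix (such as GZ, GZr or GZm) and a code of a letter and a digit, likewise unexplained, and no comparison below uses them. A total of 608 cultures of 207 strains was used: 194 strains had 3 cultures and 13 had 2, with 418 cultures labelled with the earlier of 2 years and 190 with the later. Each strain is a naturally isolated line, apart from the laboratory reference N2. CB4856 is the Hawaiian strain most often set against N2.

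Totals of estimated counts ran from 15461168 to 280262722 per culture, with a median of 28772489. The rule of the study on expression distances between cultures, applied anew to genes without the study's masking of divergent regions, kept 559 cultures, with 3 in 145 strains and 2 in 62. These need not be the cultures that the study kept. Levels are given for all 608 cultures in TPM (a relative transcript level corrected for transcript length) divided by a factor per culture, and tests and heritability use the 559 kept cultures. Culture numbers 1 to 3 follow the accession order and only name a culture. In whole animals, fewer cells that make a transcript and less of it in each cell cannot be told apart.

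The code B8 moves with the low end of every quantity, and the main strain calls, H2, correlations and likeness values below are therefore also given without it (a check added after seeing the data). Of the 608 cultures, 67 were coded B8. They hold all 62 cultures of 21 strains, in 7 pools, and single cultures of 5 strains that also have other codes. The median level of hsp-16.2 was 1.29 TPM in the cultures coded B8, against medians of 15.2 (B6) to 37.3 TPM (B2) under the other codes. For hsp-70 it was 1.93 TPM, against 10.03 (B6) to 30.2 TPM (B2). Each of the other 4 quantities likewise had its lowest median under B8.

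The means of the 21 strains lay almost wholly under those of the 181 strains with no culture coded B8. For hsp-16.41 no mean of the 181 was under the highest of the 21, and for the other quantities between 1 (hsp-16.2) and 8 (F44E5.4 + F44E5.5) were. In limma on strain means, all 8 reliably expressed members were lower in the 21 strains (adjusted p up to 1.16e-16), beside 10.6% of all genes lower and 24.7% higher. The differences of the 6 quantities were between -4.21 (hsp-16.41, SE 0.174) and -2.87 (F44E5.4 + F44E5.5, SE 0.197) on the log2 scale, larger than those of 99.9% of all genes, where the median size was 0.136.

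Within strains the code gave no such uniform difference. In ECA189, hsp-16.2 was at 37.4 TPM in the culture coded B8 and at 30.9 and 15.4 TPM in the others. In ECA348 it was at 38.7 TPM against 25.8 and 9.3003 TPM, and in MY2585 at 27.9 TPM against 14.2 and 8.76 TPM. The other 2 strains went the opposite way: WN2050 had 1.70 TPM under B8 against 20.1 and 8.28 TPM, and JU2879 had 1.15 TPM, in a culture left out by the distance rule, against 16.3 and 15.3 TPM. In the 4 such strains with kept cultures of both kinds (11 cultures), limma with strain as a block called 0 of 8 members and 0% of all genes, with 0 members and 780 genes at an unadjusted p under 0.05. The intervals are wide, at 0.25 log2 with an SE of 0.665 for hsp-16.2. For the 21 strains, strain and code cannot be told apart.

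The 9 genes lie at 4 places in the genome (coordinates of assembly WBcel235). The first, on chromosome V, holds hsp-16.1 (V:9087293-9087782, minus strand), hsp-16.48 (V:9088131-9088617, plus strand), hsp-16.49 (V:9089280-9089766, minus strand) and hsp-16.11 (V:9090077-9090604, plus strand). These are 2 head-to-head pairs: 348 bases separate hsp-16.1 from hsp-16.48, and 310 bases separate hsp-16.49 from hsp-16.11. Another head-to-head pair on the same chromosome is formed by hsp-16.2 (V:1804334-1804957, minus strand) and hsp-16.41 (V:1805178-1805875, plus strand), 220 bases apart. On chromosome II, F44E5.4 (II:11757107-11759311, minus strand) and F44E5.5 (II:11759662-11761861, plus strand) are likewise head to head with 350 bases between them. The gene hsp-70 stands alone on chromosome I (I:9320325-9322519, minus strand).

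Several of these genes are near-identical copies, and the estimated counts were split between copies in ways that carry little information on the single gene. The counts of hsp-16.48 and hsp-16.49 were equal in all 608 cultures, to within 1e-06 of a count. For hsp-16.1 and hsp-16.11, whose gene models span 490 and 528 bases, all but 5 cultures had a count of 0 for hsp-16.1. The highest hsp-16.1 count, 2711 in culture 3 of NIC268, was 73.9% of the sum of both copies there, in a culture whose label is in doubt. The others were 8.96, 96.0 and 0.0454 in NIC251 and 0.713 in culture 2 of ECA363 (these strains were picked after their values were seen). The copies were therefore summed, which gives 6 quantities: hsp-16.1 + hsp-16.11, hsp-16.48 + hsp-16.49, hsp-16.2, hsp-16.41, hsp-70 and F44E5.4 + F44E5.5.

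Among the small heat shock protein genes, hsp-16.48 + hsp-16.49 was the most abundant, with a level between 1.08 and 9576 TPM and a median of 211 TPM over the 608 cultures. For hsp-16.1 + hsp-16.11 the lowest, median and highest levels were 1.53, 182 and 1732 TPM. The pair hsp-16.2 and hsp-16.41 lay lower, at medians of 24.8 and 24.03 TPM. Their ranges were 0 to 216 TPM and 0 to 948 TPM, and each had a count of 0 in 2 cultures. Of the HSP70 genes, hsp-70 ranged from 0.0913 to 93.8 TPM with a median of 19.7 TPM, and F44E5.4 + F44E5.5 from 0.605 to 509 TPM with a median of 128 TPM. For comparison, the constitutive hsp-1 had a level between 540 and 2958 TPM with a median of 1693 TPM (hsp-1 was taken as a comparison gene after its values were seen).

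The order of the levels was read within cultures, per length. The level of hsp-16.48 + hsp-16.49 exceeded that of hsp-16.1 + hsp-16.11 in 523 of 608 cultures (86.0%), which in turn exceeded F44E5.4 + F44E5.5 in 530 cultures (87.2%). F44E5.4 + F44E5.5 was above hsp-16.2 in 605 cultures. The neighbours hsp-16.2 and hsp-16.41 were not separated, since hsp-16.2 was higher in 315 cultures (51.8%). Last came hsp-70, under hsp-16.41 in 429 cultures (70.6%).

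The range over cultures was wide for every quantity. The 95th percentile was 28.2 times the 5th for hsp-16.1 + hsp-16.11 (504 against 17.9 TPM), 24.8 times for hsp-16.48 + hsp-16.49, 62.8 times for hsp-16.2, 93.3 times for hsp-16.41, 27.5 times for hsp-70 and 26.3 times for F44E5.4 + F44E5.5. Both members of the pair on the left of chromosome V therefore had the widest relative spread. Over the 541 cultures with another code than B8 these ratios were 7.74 (hsp-16.48 + hsp-16.49) to 11.9 (hsp-16.41).

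**Figure D1:**
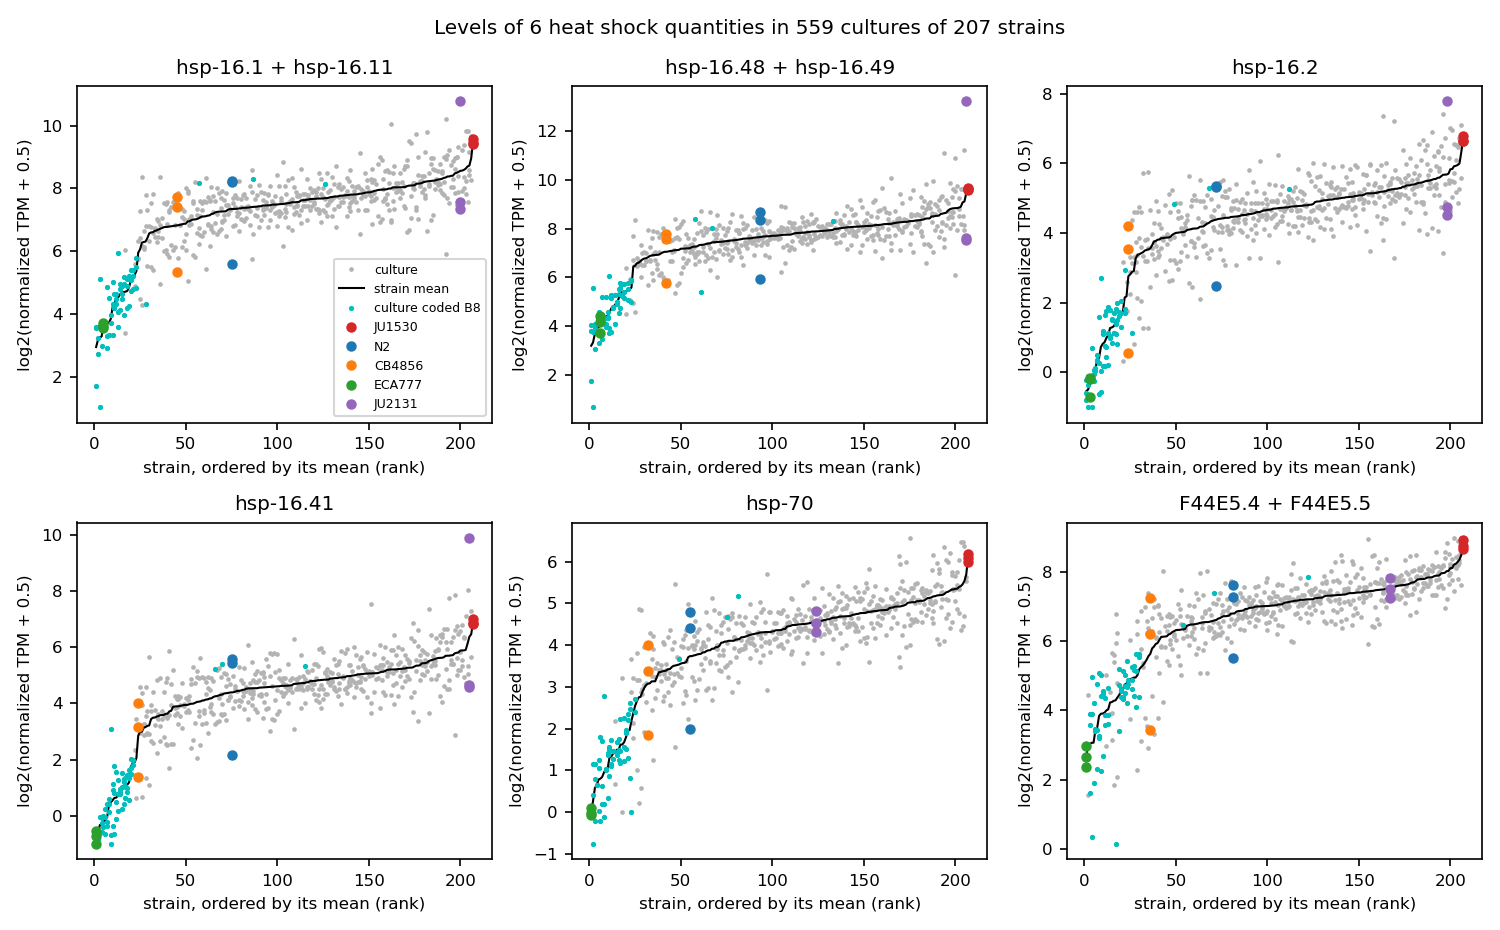
Level of each of the 6 quantities in the 559 kept cultures of 207 strains, as log2(normalized TPM + 0.5), with the strains ordered along the x axis by their mean (black line). Grey points are single cultures cyan points cultures coded B8 and other coloured points the cultures of JU1530, N2, CB4856, ECA777 and JU2131. JU1530 is the last strain in all 6 panels, and the cyan points gather at the left, where the line is steepest and each quantity has 23 to 31 strains called lower than the others.

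To ask whether the genes differ among strains, estimated counts were fitted with 1 coefficient per strain in edgeR (quasi-likelihood F-test). All 8 reliably expressed members differed (Benjamini-Hochberg adjusted p between 1.02e-54 for F44E5.5 and 2.54e-37 for hsp-16.11), where 96.2% of the 16232 genes tested did. By the F-test of limma on the log2 levels all 8 differed as well, beside 98.4% of all genes. A difference among strains was thus the rule for any gene in these cultures. The same 8 members differed without the cultures coded B8 (edgeR, adjusted p up to 1.30e-05, beside 95.4% of all genes), and with the code as a covariate (limma, adjusted p up to 1.09e-05, beside 98% of all genes).

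Broad-sense heritability (H2, the share of the variance of log2(normalized TPM + 0.5) that lies between strains) places the members more finely. It was 0.655 for hsp-16.1 + hsp-16.11, 0.612 for hsp-16.48 + hsp-16.49, 0.686 for hsp-16.2 and 0.675 for hsp-16.41. The HSP70 genes had 0.696 for hsp-70 and 0.617 for F44E5.4 + F44E5.5. Over all genes the median was 0.546 and the upper quartile 0.687, so 5 of the 6 quantities lay between the median and the upper quartile. The size of both components set these genes further apart than their ratio. The SD between strains was 1.05 to 1.37 on the log2 scale, against a median of 0.312 over all genes, and that among cultures of a strain was 0.736 to 0.948, against a median of 0.282. Between 95.1% and 98.2% of all genes had a lower variance among cultures of a strain, and between 93.0% and 97.3% a lower variance between strains, than these members and sums.

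These values rest on the strains coded B8. Without the cultures of that code (494 cultures of 185 strains left), H2 was 0.190 for hsp-16.1 + hsp-16.11, 0.157 for hsp-16.48 + hsp-16.49, 0.218 for hsp-16.2, 0.186 for hsp-16.41, 0.384 for hsp-70 and 0.4202 for F44E5.4 + F44E5.5. All 6 were then under the median of all genes, 0.521, and between 6.01% and 35.1% of genes had a lower H2. The SD between strains came to 0.357 to 0.694, while that among cultures of a strain stayed at 0.730 to 0.967. The 2 HSP70 quantities then had a higher H2 than the 4 of the hsp-16 genes, a difference that was not tested. With the code regressed out of all 559 cultures, which also removes strain differences that go with the code, H2 was 0.109 to 0.266.

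**Figure D2:**
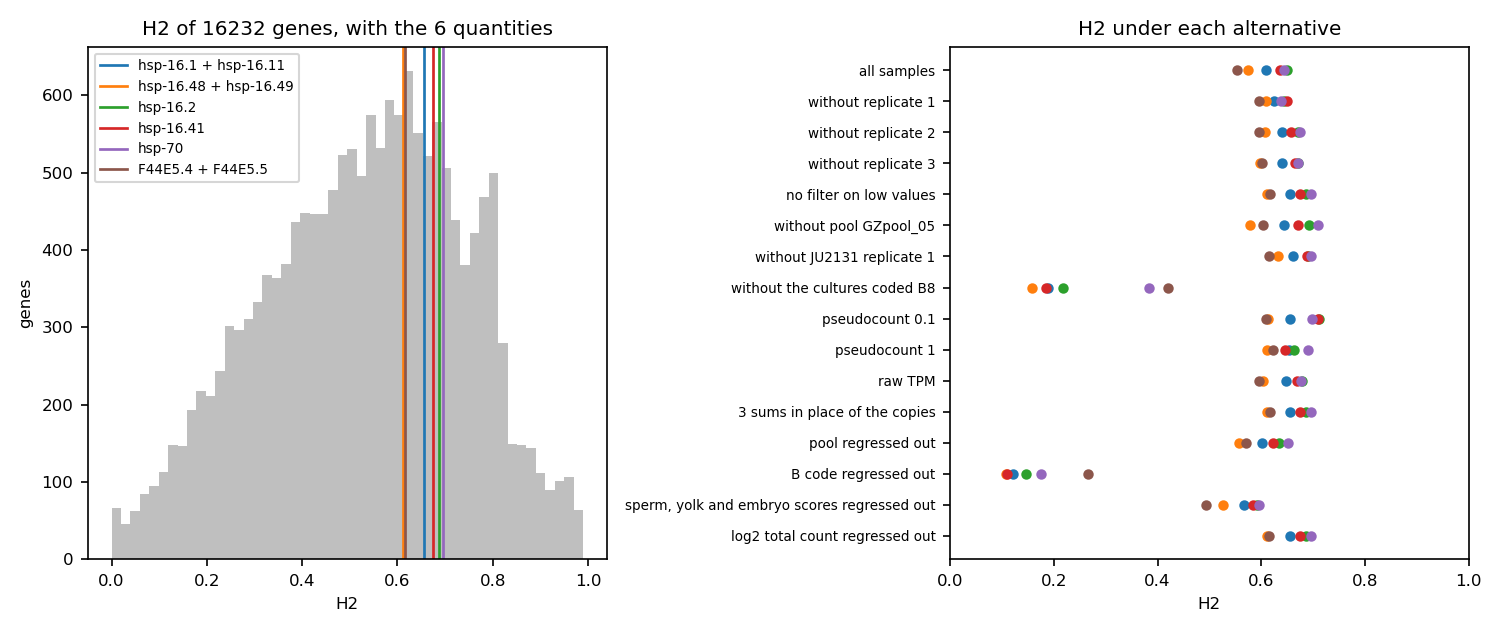
Left, H2 of the 16232 genes (grey bars, number of genes) with a vertical line for each of the 6 quantities, which lie between 0.612 and 0.696. Right, H2 of the 6 quantities (points) under each alternative way of processing, the lowest values being those with the code regressed out (0.109 to 0.266) and without the cultures coded B8 (0.157 to 0.4202).

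Each strain was next compared with the mean of the other strains with limma, with p-values adjusted over all genes and strains together. For comparison, 22.8% of all pairs of a strain and a gene were called, 11.9% with the strain higher and 10.9% with it lower. For the members, lower strains outnumbered higher ones in every quantity. Among 207 strains, 11 were higher and 24 lower in hsp-16.1 + hsp-16.11, 10 and 23 in hsp-16.48 + hsp-16.49, 13 and 27 in hsp-16.2, 13 and 24 in hsp-16.41, 21 and 28 in hsp-70, and 11 and 31 in F44E5.4 + F44E5.5. These counts are 15.9% to 23.7% of the strains, near or under the share over all genes. The called differences ran from 1.10 to 2.64 on the log2 scale in the higher strains and from -5.05 to -1.27 in the lower ones.

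The lower strains were largely shared among quantities. In total, 32 strains were lower in at least 1 quantity and 23 in all 6. Those 23 include all 21 strains whose cultures were all coded B8, and otherwise only JU2478 and JU3132. With its left-out culture 3 included, JU3132 was lower in hsp-16.1 + hsp-16.11 and F44E5.4 + F44E5.5 alone (limma adjusted p = 0.0403 and 0.00310), with adjusted p of 0.0515 to 0.248 for the other 4. All 24 strains lower in hsp-16.41 were also lower in hsp-16.2, which had 27, and 26 of the 28 strains lower in hsp-70 were lower in hsp-16.2 as well. Of 30 strains higher in at least 1 quantity, only JU1530 and NIC523 were higher in all 6. With all 608 cultures the count higher in at least 1 was 15, JU1530 alone was higher in all 6, and NIC523 was not called in hsp-16.2 (adjusted p = 0.0529) and hsp-16.41 (adjusted p = 0.0674). The count lower in all 6 was then 21. No strain was higher in 1 quantity and lower in another, and 145 strains were called in none. With replicate 1, 2 or 3 left out of every strain with 3 cultures, between 20 and 22 strains were lower in all 6, and 19 to 22 of them were among those 23. The count of strains higher in at least 1 quantity fell from 30 to between 6 and 14. With B8 left out, the mean of the others is higher. Of 185 strains, 3 were then lower in all 6 quantities: JU2478 and JU3132, each on 2 kept cultures, and MY2147. The cultures of MY2147 were unlike, with culture 1 the lowest in all 6. Its hsp-16.2 levels were 1.26, 23.6 and 9.36 TPM, and culture 2 was at 0.952 times the median of all cultures. Only 1 strain was higher in all 6 (JU1530), and 158 were called in none. Between 4 (hsp-16.48 + hsp-16.49) and 14 strains (F44E5.4 + F44E5.5) were then lower and between 1 and 5 higher in a quantity, where 10.2% and 11.3% of pairs over all genes were.

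JU1530 had the highest mean of all strains in each of the 6 quantities, and its cultures differed little. The levels of its 3 cultures were 762, 690 and 679 TPM for hsp-16.1 + hsp-16.11. For hsp-16.48 + hsp-16.49 they were 819, 766 and 782 TPM. The pair of hsp-16.2 (109, 98.9 and 99.5 TPM) and hsp-16.41 (128, 115 and 112 TPM) was as even. All 12 of these small heat shock protein values were 3.63 to 5.34 times the median of all cultures. The same strain had 67.5, 72.0 and 62.7 TPM for hsp-70, and 428, 484 and 400 TPM for F44E5.4 + F44E5.5. The differences from the other strains were 2.07 (hsp-70) to 2.64 (hsp-16.41) on the log2 scale, with limma adjusted p between 3.20e-05 and 0.000447. JU1530 was also called higher in all 6 quantities without replicate 1, 2 or 3, with adjusted p up to 0.0139, and without the cultures coded B8, by 1.75 to 2.21 log2 (adjusted p between 0.000529 and 0.00149).

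NIC523 ranked 3 from the top in hsp-16.1 + hsp-16.11, at 385, 562 and 345 TPM, and in F44E5.4 + F44E5.5, at 326, 355 and 302 TPM. Without replicate 2 it was called in none of the 6 quantities (adjusted p between 0.0606 and 0.311), and without the cultures coded B8 in F44E5.4 + F44E5.5 alone (adjusted p = 0.0191). NIC260 followed JU1530 in 3 of the small heat shock protein quantities, but on unlike cultures. Its hsp-16.2 levels were 46.3 and 135 TPM in the kept cultures and 18.7 TPM in culture 2, which the distance rule left out, and the limma adjusted p was 0.00781 for the kept cultures, 0.0678 with all 3, and 0.0453 without the cultures coded B8. XZ1516 was second in hsp-70, at 48.6, 60.8 and 45.5 TPM (1.68 log2 above the others, adjusted p = 0.00109), and was not called in hsp-16.2 (0.87 log2, adjusted p = 0.221). The difference between those quantities was not tested. JU360 ranked 3 from the top in hsp-70, at 25.5 and 81.9 TPM in its kept cultures and 14.1 TPM in culture 3, which was left out, and had the same rank in hsp-16.2. Its calls in both (adjusted p = 0.0217 and 0.0306) were lost with all 3 cultures (0.148 and 0.168) and without B8 (0.0833 and 0.127). JU3140 was second in F44E5.4 + F44E5.5, at 499, 468 and 195 TPM (1.82 log2 above the others, adjusted p = 0.00299, and 1.53 log2 with adjusted p = 0.00933 without B8). Without replicate 1 or 2 it was not called there (adjusted p = 0.0701 and 0.0615).

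The lowest strains are named by the same rule. ECA777, ECA363, ECA705, ECA594 and ECA703 among them had only cultures coded B8. ECA777 was lowest in hsp-16.41, hsp-70 and F44E5.4 + F44E5.5. Its hsp-70 levels were 0.565, 0.455 and 0.489 TPM, from counts of 89, 22 and 33, and lay 4.04 log2 below the other strains (limma adjusted p = 4.61e-17). Its hsp-16.41 levels were 0.105, 0 and 0.179 TPM, from counts of 4, 0 and 3, which puts the gene at the limit of what these depths can show. Its F44E5.4 + F44E5.5 levels were 5.80, 4.63 and 7.24 TPM. All 3 cultures of ECA777 lay under every culture of JU1530 in all of these. Both strains were named for the lowest and highest means here, so this gap largely follows from the choice.

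ECA363 had the lowest mean for hsp-16.1 + hsp-16.11 (11.4, 2.79 and 11.2 TPM) and for hsp-16.2 (0.354, 0.160 and 0.0760 TPM). ECA705 was among the 3 lowest in all 6 quantities, with hsp-16.2 levels of 0.422, 0.280 and 0 TPM and hsp-70 levels of 1.22, 1.72 and 0.360 TPM. ECA594 had hsp-16.48 + hsp-16.49 levels of 46.9, 12.95 and 1.08 TPM. The cultures of ECA594 thus spread widely, yet all of them lay under the median of all cultures. ECA703 ranked 3 from the bottom in hsp-16.41, at 0.562, 0.465 and 0.151 TPM. JU3132, second from the bottom in F44E5.4 + F44E5.5, owes its place to the kept cultures at 2.44 and 21.1 TPM, since culture 3, which was left out, had 244 TPM.

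Of the strains with no culture coded B8, JU2478 (picked after its values were seen) was low in every culture. Its hsp-70 levels were 4.03, 1.08 and 7.92 TPM and its hsp-16.2 levels 5.50, 2.90 and 5.97 TPM. Against the other strains without B8 cultures, its differences were -2.94 log2 in hsp-70 (limma adjusted p = 8.79e-07) and -2.52 log2 in hsp-16.2 (adjusted p = 0.000944). These differences rest on its 2 kept cultures. The distance rule left out the culture at 7.92 TPM of hsp-70 and 5.97 TPM of hsp-16.2, its highest in both. Culture 2 of JU2478, its lowest in both, was coded B6, which after B8 had the lowest median in all 6 quantities. These calls were not fitted with the code.

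The reference strain N2 lay in the middle of the strains and was called in none of the quantities (limma adjusted p between 0.675 and 0.925). Its cultures differed widely. The levels in cultures 1, 2 and 3 were 299, 47.2 and 294 TPM for hsp-16.1 + hsp-16.11, 39.7, 5.07 and 39.3 TPM for hsp-16.2, 27.2, 3.47 and 20.8 TPM for hsp-70, and 195, 44.99 and 153 TPM for F44E5.4 + F44E5.5. Culture 2 was the lowest in all 6 quantities. In CB4856, culture 3 was the lowest in each: hsp-16.2 was at 17.7, 11.1 and 0.952 TPM and hsp-16.41 at 15.8, 8.41 and 2.08 TPM. CB4856 was called lower in hsp-16.2 (-1.54 log2, adjusted p = 0.0157) and hsp-16.41 (-1.42 log2, adjusted p = 0.0447). Without replicate 3 neither call stood, at -0.41 log2 (adjusted p = 0.721) and -0.65 log2 (adjusted p = 0.573). With B8 left out it was called lower in hsp-16.2, hsp-16.41, hsp-70 and F44E5.4 + F44E5.5 (adjusted p between 0.00201 and 0.0252), with culture 3 included.

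Spread among cultures of 1 strain was thus a feature of these genes. The median strain had a highest culture 1.91 times (hsp-70 and F44E5.4 + F44E5.5) to 2.39 times (hsp-16.41) its lowest. Between 35 strains (hsp-70) and 58 strains (hsp-16.41) of the 207 had cultures at least 4-fold apart. Neither this count nor those that follow were made for other genes. As given above, 95.1% (hsp-70) to 98.2% (hsp-16.41) of all genes had a lower variance among cultures of a strain. A single culture stood at least 4-fold above each of the others of its strain in 6 cases for hsp-70, 6 for hsp-16.48 + hsp-16.49, 7 for hsp-16.1 + hsp-16.11, 7 for F44E5.4 + F44E5.5, 9 for hsp-16.2 and 15 for hsp-16.41. Cultures at least 4-fold below each of the others of their strain numbered 12 (hsp-70) to 20 (hsp-16.2). A 4-fold excess was seen in at least 1 quantity in 18 cultures, in all 4 hsp-16 quantities in 3, and in all 6 quantities in 1. Of the 6 cultures with an excess of hsp-70, 2 had one in all 4 hsp-16 quantities. Of the 18 cultures, 9 were among the 81 cultures of sequencing pool GZpool_05, and the part of the pool in these values was not tested.

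Culture 1 of JU2131 had the highest small heat shock protein levels of the series. Its hsp-16.48 + hsp-16.49 level was 9576 TPM, against 183 and 198 TPM in cultures 2 and 3. For hsp-16.41 the levels were 948, 23.6 and 24.4 TPM, for hsp-16.1 + hsp-16.11 1732, 160 and 189 TPM, and for hsp-16.2 216, 22.3 and 26.0 TPM. The excess was unequal between partners of a pair, larger for hsp-16.41 than for hsp-16.2 and larger for hsp-16.48 + hsp-16.49 than for hsp-16.1 + hsp-16.11. The HSP70 genes stayed near the other cultures, at 27.3, 19.3 and 22.5 TPM for hsp-70 and 224, 153 and 180 TPM for F44E5.4 + F44E5.5. JU2131 was called higher in all 4 hsp-16 quantities (1.34 to 2.12 log2, limma adjusted p between 0.000495 and 0.0318). Without culture 1 it was called in none (0.13 to 0.71 log2 over the 6 quantities, adjusted p between 0.443 and 0.907). With B8 left out it was called in hsp-16.41 and hsp-16.48 + hsp-16.49 alone (adjusted p = 0.0166 and 0.00428).

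Other strains, picked after their values were seen except NIC529, also had cultures with an hsp-16 excess that hsp-70 did not match in size. In AB1, hsp-16.48 + hsp-16.49 was at 2204, 190 and 151 TPM in cultures 1 to 3, while hsp-70 was at 19.7, 24.9 and 23.3 TPM. In NIC529, ranked 3 from the top in hsp-16.48 + hsp-16.49, the levels were 2385, 250 and 287 TPM, and those of hsp-70 37.3, 28.5 and 38.2 TPM. Its call (1.66 log2, limma adjusted p = 0.00508) was lost without replicate 1 (0.66 log2, adjusted p = 0.489). In JT11398, hsp-16.48 + hsp-16.49 was at 748, 67.5 and 1896 TPM, and hsp-70 at 15.8, 6.41 and 9.401 TPM, so there 2 of 3 cultures were high in the former. The highest hsp-16 culture of AB1 and of JT11398 was therefore not the highest for hsp-70.

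Ratios within a culture show the same unevenness. They are of normalized TPM with 0.5 added to both terms, so the factor per culture does not fully cancel and ratios of low levels are pulled towards 1. The ratio of hsp-16.48 + hsp-16.49 to hsp-16.1 + hsp-16.11 had a median of 1.16 and a 95th percentile of 1.61 over 608 cultures, and was 5.53 in culture 1 of JU2131, 2.64 in culture 1 of NIC529 and 2.60 in culture 1 of AB1. For hsp-16.41 to hsp-16.2 the median was 0.995 and the 95th percentile 1.31, against 4.37, 2.10 and 2.10 in those cultures. The ratio of hsp-16.41 to hsp-70, with a median of 1.20 and a 95th percentile of 2.29, reached 34.1 in JU2131, 23.6 in culture 3 of JT11398, 10.5 in AB1 and 6.86 in NIC529. In the other direction, the lowest of the 608 values of this ratio was 0.176, in culture 1 of ECA363. There hsp-16.41 was at 0.475 TPM, from a count of 6, and hsp-70 at 5.04 TPM, so the added 0.5 weighs on that value.

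**Figure D3:**
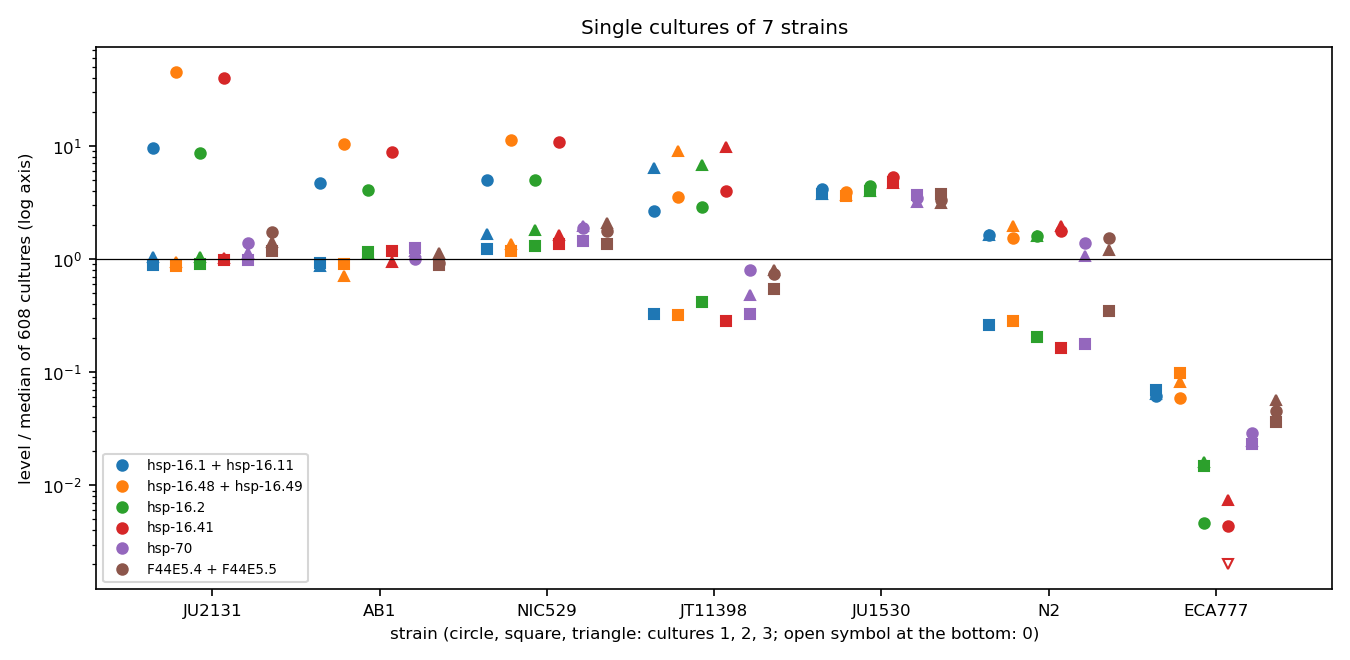
Levels in the single cultures of 7 strains, divided by the median of the 608 cultures and drawn on a log axis, with a colour for each quantity and a symbol for each culture. In JU2131, AB1 and NIC529 a single culture has raised hsp-16 values (hsp-16.48 + hsp-16.49 at 45.3, 10.4 and 11.3 times the median) beside hsp-70 at 1.39, 1.00 and 1.90 times the median, while all cultures of JU1530 are high and all of ECA777 low in all 6 quantities.

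Although the genes lie at 4 places, their levels moved together over strains and over cultures. Over the means of 207 strains, Pearson's r for the 15 pairs of quantities was 0.879 to 0.993 (Spearman's rho 0.809 to 0.984). Over the deviations of 559 cultures from their strain mean, r was 0.703 to 0.965 (rho 0.717 to 0.965). The highest values over strain means joined hsp-16.2 to hsp-16.41 (0.993), and those over deviations hsp-16.1 + hsp-16.11 to hsp-16.41 (0.965). The lowest joined hsp-16.48 + hsp-16.49 to F44E5.4 + F44E5.5 in both (0.879 and 0.703). The HSP70 genes, on different chromosomes, reached 0.945 over strain means and 0.907 over deviations. Without the 2 points farthest from the median, the ranges were 0.873 to 0.992 and 0.728 to 0.964. Without the cultures coded B8, r was 0.759 to 0.979 over the means of 185 strains and 0.668 to 0.983 over the deviations of 494 cultures, so the range over strain means was lower and that over deviations was close. These values describe the data: the points share libraries and their scaling, and in the deviations also strain means.

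**Figure D4:**
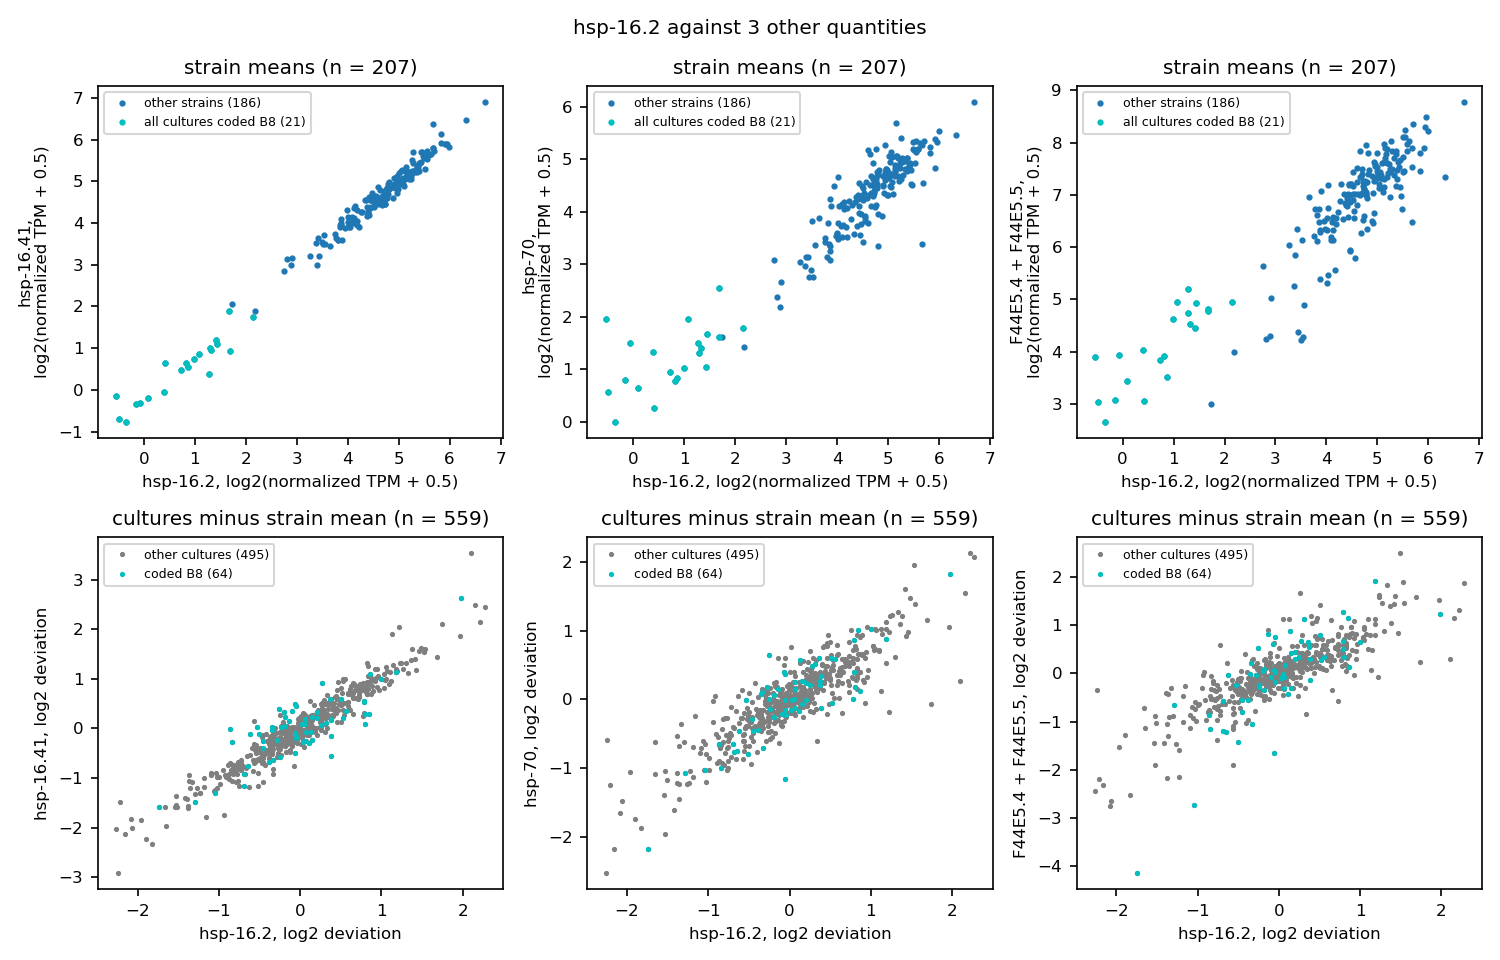
Level of hsp-16.41, hsp-70 and F44E5.4 + F44E5.5 (y axes) against that of hsp-16.2 (x axes), as log2(normalized TPM + 0.5), over the means of 207 strains (top, with the 21 strains coded B8 throughout in cyan, r of 0.993, 0.946 and 0.913) and as deviations of 559 cultures from their strain mean (bottom, with cultures coded B8 in cyan, r of 0.951, 0.876 and 0.816). Points follow a line in each panel, most tightly for hsp-16.41, and the 21 strains lie at its lower end. Without the cultures coded B8 the strain means had r of 0.979, 0.879 and 0.839.

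Within sequencing pools the relation was of like size. In the 7 pools with the most cultures (54 to 93 kept cultures each), the median r over the 15 pairs was 0.839 to 0.905 for deviations, and the lowest single r was 0.619.

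The split of F44E5.4 + F44E5.5 between its copies varied by strain. F44E5.5 took a median of 16.51% of the counts of both over 608 cultures. Strain means of this share lay mostly between 11.4% and 40.8% (5th and 95th percentile of 207 strains). In 6 strains nearly all counts went to F44E5.5: ECA363 (98.1%), ECA710 (97.1%), XZ1516 (96.7%), NIC265 (90.03%), NIC258 (87.6%) and NIC251 (86.3%). Their cultures stayed close together, as in NIC258 with 85.9% to 88.6% and XZ1516 with 93.2% to 100%. In 4 strains the share was under 5%: MY2147 (0.0819%), ECA745 (0.627%), ECA738 (0.910%) and JU1213 (3.51%). These strains were picked after their values were seen. Among these 10 strains, NIC258 ranked 5 from the top of 207 strains in the sum of both copies, XZ1516 28, NIC251 44, JU1213 56 and NIC265 88. The others ranked 179 (MY2147), 184 (ECA745), 195 (ECA710), 199 (ECA363) and 202 (ECA738), and of these all but MY2147 are strains coded B8 throughout.

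Only 2 cultures had a share over 30 percentage points from the mean of the others of their strain. Culture 3 of NIC268 had 71.0%, against 15.9% and 16.35% in its other cultures, and culture 1 of NIC256 had 75.5%, against 34.6% and 42.3%. Both were left out by the distance rule. The culture of NIC268 is also the one with an hsp-16.1 count of 2711, and the split of both gene pairs thus went against the other cultures of that label. Whether these 2 cultures are of the strain on their label is therefore in doubt and was not tested, and neither was how far reads were assigned to the right copy in each strain. Both enter the levels over 608 cultures, but no test on kept cultures.

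**Figure D5:**
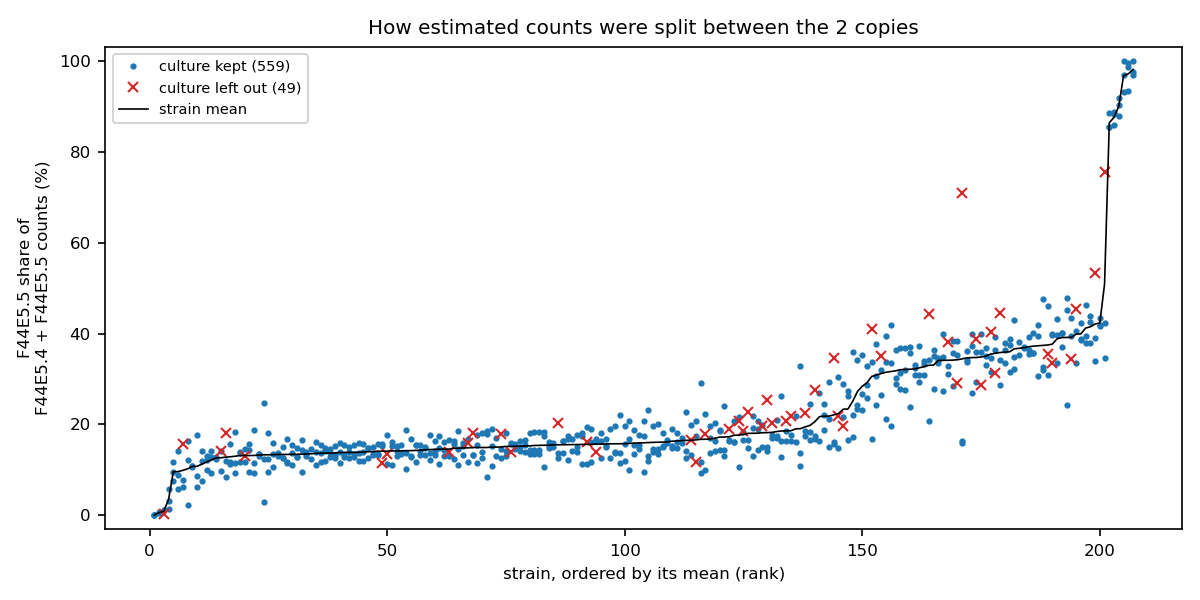
Share of F44E5.5 in the estimated counts of F44E5.4 + F44E5.5 (y axis, percent) in 608 cultures of 207 strains ordered by their mean share (x axis, black line). Blue points are the 559 kept cultures and red crosses the 49 left out. The 6 strains at the right lie at 86.3% to 98.1%, and the isolated cross at 71.0% is culture 3 of NIC268.

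Outside the members, the gene with the most like pattern was nhr-17 (C02B4.2, chromosome X), which encodes a nuclear hormone receptor. Likeness was the mean r with the 6 quantities over 16224 genes. For nhr-17 it was 0.741 over deviations of cultures (0.695 to 0.782 for single quantities) and 0.803 over strain means. The median over all genes was 0.0559 and 0.00162. Over deviations 7 genes were above 0.5 and 0 under -0.5, and over strain means 41 were above 0.5 and 34 under -0.5. The level of nhr-17 was 31.7, 35.3 and 45.2 TPM in JU1530 and 43.3, 36.2 and 50.6 TPM in NIC523, against 6.95, 7.80 and 7.37 TPM in ECA777 and a median of 20.1 TPM over 608 cultures. In JU2131 it was 28.7, 32.8 and 26.2 TPM, so culture 1 did not stand out, whereas in AB1 it was 36.7, 19.1 and 17.7 TPM, highest in the culture with the hsp-16 excess. Without the cultures coded B8, nhr-17 still had the highest likeness, at 0.741 over deviations and 0.763 over strain means.

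After nhr-17, the most like genes over deviations were cyp-33A1, a cytochrome P450 gene (0.653), dhs-8, a short-chain dehydrogenase gene (0.571), F26G1.2 (0.561), ZC250.4 (0.529), R09E10.13 (0.515), B0410.3 (0.5001), let-383 (0.497), W02F12.2 (0.495) and scp-1 (0.493). Over strain means they were dhs-8 (0.684), ugt-8, a glucuronosyltransferase gene (0.662), F12A10.1 (0.620), zhit-3 (0.591), cest-24 (0.589), rpoa-2, an RNA polymerase I subunit gene (0.582), Y53C12B.1 (0.581), F40F8.5 (0.578) and scp-1 (0.577). Only nhr-17, dhs-8 and scp-1 were among the top 10 of both. Among the cultures with other codes, 8 of the top 10 over deviations were the same genes, but only 3 of those over strain means (nhr-17, dhs-8 and ugt-8). The likeness of zhit-3 over strain means was then 0.155 and that of rpoa-2 0.396.

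Most other chaperone genes had lower values. All 14 constitutive cytosolic chaperone and co-chaperone genes of the list differed among strains (edgeR), beside 96.2% of all genes. The 14 had a median H2 of 0.389. Their median likeness was -0.0643 over deviations, with 0.482 for unc-23, a BAG-domain co-chaperone gene. Over strain means it was 0.126, with 0.560 for hsp-110, a co-chaperone of HSP70, and 0.543 for unc-23. Over the 185 strains without B8 the values were 0.335 for hsp-110 and 0.651 for unc-23, and the median was 0.00767. Of these 14 genes, 7 were lower and 0 higher in the 21 strains coded B8 throughout (limma on strain means), with differences no lower than -0.42 log2. Over all genes, 10.6% were lower and 24.7% higher there.

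In this and the following lists, calls among strains stand beside 96.2% of all genes. Of 11 other small heat shock protein genes, 9 were tested and 9 differed among strains. Hsp-43 had the largest H2 among them (0.719, and 0.7197 without the cultures coded B8). Hsp-12.3 had the largest year difference, 0.17 log2 higher in the later year (limma adjusted p = 0.00155). Their median likeness was 0.255 over deviations and 0.149 over strain means (0.326 without B8), with the highest values for hsp-17 (0.448 and 0.383). In the endoplasmic reticulum list 10 of 10 genes differed, with the largest H2 for dnj-7 (0.687, and 0.677 without B8). Its median likeness was -0.0896 over deviations, and over strain means it was -0.0523 with B8 and 0.103 without, so the sign turned. In the mitochondrial list 6 of 6 differed, with the largest H2 for hsp-6, a mitochondrial HSP70 gene (0.608, and 0.605 without B8), and medians of -0.0598 and 0.119 (0.150 over strain means without B8). Among reporters of other stress responses, 10 of 12 were tested and all 10 differed, with the largest H2 for gpdh-1, an enzyme gene induced by osmotic stress (0.737, and 0.715 without B8), and medians of 0.158 and 0.213 (0.224 over strain means without B8). The highest values were those of aip-1, an arsenite-inducible gene (0.488 and 0.455). Without B8, aip-1 had 0.227 over strain means and the highest value was 0.521, for mtl-1, a metallothionein gene.

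These lists did not move one way with the code. In the 21 strains coded B8 throughout against those with no B8 (limma on strain means), 7 of 10 genes of the endoplasmic reticulum list were higher and 0 lower. Of 10 stress reporters 3 were higher and 4 lower (-0.91 to 0.75 log2), and of 9 other small heat shock protein genes 2 were higher and 2 lower. Over all genes, 24.7% were higher and 10.6% lower in this comparison.

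The known regulators of the heat shock response are covered by a list of 7 genes. Beside 96.2% of all genes, 6 of these 7 differed among strains. Their likeness was between -0.170 and 0.00308 over deviations and between -0.274 and 0.0311 over strain means. For hsf-1 itself, which encodes the heat shock factor, it was -0.170 and -0.0925 (-0.213 and -0.359 without the cultures coded B8), and its level ran from 20.8 to 48.4 TPM. The constitutive hsp-1 had values of -0.0744 and 0.146 (-0.121 and 0.220 without B8) and an H2 of 0.275. The largest H2 of the list was that of hsf-2, at 0.749 (0.722 without B8). Transcript levels alone were measured, so the state of HSF-1 protein is not covered.

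Animals of different strains may differ in developmental stage at harvest, and markers of stage were therefore set beside the members. Mean scores over 22 sperm genes, 6 yolk genes and 6 of 7 embryonic genes served for this. Over strain means, r of the 6 quantities was 0.322 to 0.429 with the sperm score, 0.223 to 0.362 with the yolk score and -0.394 to -0.318 with the embryo score. All 22 sperm genes had a positive mean r (0.185 to 0.420) and all 6 embryonic genes a negative one (-0.380 to -0.110), while the 6 yolk genes ran from -0.0106 to 0.405. Over deviations of cultures the ranges were 0.0113 to 0.171, -0.204 to 0.168 and -0.203 to -0.0800. With the 3 scores regressed out, H2 of the 6 quantities was 0.493 to 0.595. Over those 185 strains, r was 0.385 to 0.492 with the sperm score, 0.0650 to 0.334 with the yolk score and -0.374 to -0.279 with the embryo score. The strains coded B8 throughout differed in these lists too: 11 of 22 sperm genes and 2 of 6 yolk genes were lower and none higher, and 5 of 6 embryonic genes were higher and none lower, in limma on strain means. Over all genes, 10.6% were lower and 24.7% higher. The median sperm score of these strains was 5.37 (2.62 to 7.60), against 6.63 (1.74 to 8.44) in the strains with no B8, on the log2 scale. Correlation of the members with the log2 total count was -0.0473 to -0.0166 over strain means. The part of developmental stage in the strain differences was not tested further.

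The label year gives a comparison within strains. In 122 strains with kept cultures of both years (350 cultures), none of the 8 members was called between the years by limma with strain as a block, where 48.1% of all genes were called, 15.2% higher and 32.8% lower in the later year. Differences (later minus earlier year) of the members and sums ran from -0.0889 to 0.00211 on the log2 scale with SE of 0.0795 to 0.108, and adjusted p was 0.460 to 0.985. None had an unadjusted p under 0.05 in limma or in the quasi-likelihood test of edgeR. For hsp-70 the 95% interval was -0.154 to 0.158 log2, and for hsp-16.41 -0.285 to 0.137 log2, so smaller differences between years cannot be told from 0. Leaving out cultures moved these differences. Without replicate 1 they were 0.102 to 0.164 and without replicate 2 -0.246 to -0.180 (lowest adjusted p 0.0681). Without replicate 3 they were -0.676 to -0.393 (lowest adjusted p 0.0758), under both intervals. None of the 6 quantities was called in these fits, and neither the size nor the sign of a year difference is settled.

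Sequencing pools and codes did differ within strains. In a limma fit with strain, all 8 members were called over the 14 pools (adjusted p between 5.47e-06 for hsp-70 and 0.00982 for F44E5.4), beside 89.3% of all genes. Over the codes B1 to B9, all 8 were called likewise (adjusted p between 0.000107 and 0.0264), beside 78.8% of all genes. No pool held cultures of both years. Over the 7 pools of at least 60 cultures, the highest median level was 1.43 (hsp-16.48 + hsp-16.49) to 1.78 times (hsp-16.41) the lowest, with GZpool_04 lowest for 5 quantities. For hsp-16.41 the medians were 17.1 TPM in GZpool_04 and 30.4 TPM in GZpool_05. With pool as a covariate, all 8 members still differed among strains (limma adjusted p up to 7.84e-44).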

How the data were processed

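Whole young adult hermaphrodites were measured by RNA sequencing, with each culture as 1 sample and the strain taken from its label. The authors trimmed reads with fastp 0.20.0 and quantified them with kallisto 0.44.0 (versions from the submitters' processing notes) against transcriptomes carrying the single-nucleotide variants of each strain, from WormBase release WS276. The deposited tables hold, for 65173 transcripts, the estimated counts and the raw TPM, neither scaled between samples. Of 609 samples of 208 strains, 608 of 207 strains were used, since JU2800 had 1 culture.

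Transcripts were assigned to genes by identifier (58525) or sequence name (6635) with the Ensembl annotation of WBcel235. Estimated counts were rounded and summed per gene, and TPM was summed and divided by factors computed as in norm_factors of sleuth. Hyper-divergent regions, which the study masked per strain, were not masked. The distance rule of the study was applied, to genes without that masking, until no culture was removed (559 left), and log2(normalized TPM + 0.5) was analysed. Fold changes on this scale are understated at low levels. Strains were compared in edgeR 4.0.16 (quasi-likelihood F-test), with TMM scaling and a dispersion trend from 400 seeded genes, and with limma 3.58.1 (R 4.3.3) for single strains, year and pool, at an adjusted p of 0.05 over all genes (for single strains, over all genes and strains). For H2, strain was a random effect fitted by restricted maximum likelihood. Both procedures were tested on simulated data. Counting error is part of the spread among cultures, which was the error of every test. Relatedness among strains was not modelled.

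Named were all members, the 3 highest and 3 lowest strains of each quantity, N2, CB4856, the 10 most like genes over cultures and over strain means, and, for the lists of chaperones, stress reporters and regulators, genes with the largest H2 or year difference, besides which hsp-17, hsp-110, aip-1, hsf-1 and hsp-1 were chosen after their values were seen. The members and lists were chosen with earlier results of these data known. After seeing the data, the code B1 to B9 in the sample titles was added as a covariate and cultures coded B8 were left out, and strains coded B8 throughout were compared with those without it (limma on strain means). Alternatives covered samples, filters, scaling, pseudocounts (0.1 and 1), copies, pool, stage scores, depth and tools.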

Additional observations from a re-analysis of the deposited data

Results flagged for a closer look

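The only culture of JU2800, which entered no comparison, showed all 6 quantities well above the limit that a count of 0 allows. Its raw TPM was 258.69 for hsp-16.1 + hsp-16.11, 304.558 for hsp-16.48 + hsp-16.49, 40.0597 for hsp-16.2, 45.0582 for hsp-16.41, 31.7466 for hsp-70 and 219.206 for F44E5.4 + F44E5.5, where the medians of the other 608 cultures were 182, 212, 24.6, 24.3, 19.8 and 131 raw TPM. All 6 values lay above those medians, from counts of 507 (hsp-16.2) to 13373 (F44E5.4 + F44E5.5).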

How the results depend on the processing

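In this section hsp-16.48 and hsp-16.49, with equal counts, enter as 2 of the 8 members, so their pair correlates fully by construction. The median H2 of the 8 members was 0.679 (0.665 for the 6 quantities). It moved to 0.632 with all 608 cultures, to 0.629 with pool regressed out, to 0.575 with sperm, yolk and embryo scores regressed out, to 0.204 without the cultures coded B8 and to 0.134 with the B code regressed out, and was 0.641 to 0.666 when a replicate was left out and 0.684 without culture 1 of JU2131. The mean correlation of deviations over pairs of members was 0.841 (0.863 over the 15 pairs of the 6 quantities). It fell to 0.653 with no filter on low values, which brings in hsp-16.1, at a count of 0 in nearly all cultures, and was 0.843 to 0.868 with a replicate left out. Pairs of a strain and a member called against the other strains were 332, 114 without the cultures coded B8, between 236 and 338 under the other alternatives (236 being for the 6 quantities) and 245 to 267 with a replicate left out. All 8 members (or 6 of 6 quantities) differed among strains under each alternative run, none differed between years, and 7 or 8 of 8 (or 6 of 6 quantities) differed among pools. Leaving out GZpool_05, culture 1 of JU2131 or the code B8, and fitting the code, were added after seeing the data. Without GZpool_05 or culture 1 of JU2131, 18 of 180 and 23 of 207 strains were lower in all 6 quantities. The likelihood-ratio test of DESeq2 could not be fitted, with gene-wise dispersions at 10 or above in 386 of 408 genes. No paired analysis was possible because replicate numbers follow the accession order and the labels pair no cultures between strains. The calls of single strains were not fitted with pool or code as a term. Low counts limit hsp-16.2 and hsp-16.41 in the lowest strains.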
